A study of Mus musculus with 10 samples.

Results

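The immunoglobulin heavy chain, light chain and J chain probe sets were examined in J558 cells, a line of mouse myeloma cells, with and without added Pax5. A probe set was a member if any gene symbol that the platform annotation gives it begins as an immunoglobulin heavy, kappa or lambda gene does, or is Jchain. The rule found 32 of the 34760 probe sets in the deposited table: 10 of the heavy chain locus, 19 of the kappa locus, 2 of the lambda locus and 1 of the J chain. The rule used names and no measured value, but the members were chosen with earlier results of these data known. Of the 32 members, 16 carry 1 gene symbol and 16 carry several. Those with several are given by probe set number and locus, and their readings are not assigned to a gene.

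The 10 arrays came from 4 cultures with Pax5 carrying the G183S substitution, 3 cultures with wild-type (WT) Pax5 and 3 cultures with the empty vector, which is the control. Every culture was transduced with the same retroviral backbone, which carries puromycin resistance and green fluorescent protein, and was kept in puromycin for 5 to 7 days. Cells were then sorted for green fluorescence and for IgM, and the labels do not say which IgM gate was kept. Each group is therefore 1 cell line under a viral promoter, and the members of all 3 groups were read in cells already selected on one of the proteins they encode.

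An antibody is built from 2 kinds of chain, heavy and light, and the light chain comes from either the kappa or the lambda locus. In each locus one variable segment is joined to a joining segment, and the joined exon is spliced to the constant region that sets the class of the antibody, so a myeloma, as a clone of plasma cells, makes chiefly one heavy and one light chain. J558 is known as a BALB/c plasmacytoma that makes IgA with a lambda light chain. The J chain links IgA or IgM units into polymers. Pax5 holds cells in the B lineage, is lost when they become plasma cells, and is known to repress the J chain gene.

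All values are log2 expression, and a difference of 1 is a 2-fold change. The level of 1 probe set cannot be set against that of another as an amount of RNA, since each responds with its own brightness. A place above or below the table's median level, and the words bright and dim, describe readings only. Pax5 itself was at 10.22, 10.36, 9.38 and 9.96 in the 4 G183S arrays and 10.67, 10.09 and 10.05 in the 3 WT arrays, against 7.10, 6.84 and 7.01 in the empty-vector arrays. Array medians lay between 6.81 and 6.94, and arrays of 1 group correlated at 0.986 to 0.996 over all probe sets. All 7 probe sets of the plasma cell markers lay above the table's median level of 6.89 in every array, with a list mean of 10.80 to 11.77 in G183S, 11.35 to 11.80 in WT and 11.58 to 11.77 in empty-vector arrays. Of the probe sets for T cell markers, 3 of 4 lay below the table's median level in every array, and 4 of 5 for myeloid markers did. Of 5 stromal probe sets, 3 lay above it in every array. Of 5 mature B cell probe sets, 3 lay above it in every array, and Ms4a1, which encodes CD20, was called higher in both Pax5 groups, by 2.27 in G183S and 2.43 in WT against empty vector (adjusted p = 0.0344 and 0.025 by limma).

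The immunoglobulin members showed no called difference between any of the 3 groups. With limma over all 34760 probe sets and Benjamini-Hochberg adjustment, 0 of 32 members had an adjusted p under 0.05 in G183S against empty vector, where the whole table had 0.152% called. The count was also 0 of 32 in WT against empty vector, where 0.544% of the table was called, and 0 of 32 in G183S against WT, where 0% was. At an unadjusted p under 0.05 the counts were 0, 3 and 2 of 32, the last 2 being 9.38% and 6.25%, against 10.4%, 12.9% and 7.8% of the table in the same order of comparisons. Both Pax5 comparisons use the same 3 empty-vector arrays.

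The design bounds most of these differences. The 95% interval of the difference lay wholly within 1 log2 unit of 0 for 29 of 32 members (90.6%) in each of the 3 comparisons, against 95.1%, 92.8% and 95.2% of the table. It lay within 0.5 log2 units for 23, 21 and 23 members, against 71.8%, 66.6% and 72.3% of the table. The 3 members outside the wider bound were the J chain and 2 kappa probe sets in G183S against empty vector, and 3 kappa probe sets in each of the others. The median difference over the 32 members was -0.034 in G183S against empty vector, where that of all probe sets was 0.002. It was -0.007 in WT against empty vector, where that of all probe sets was 0.018, and -0.053 in G183S against WT, where it was -0.015.

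**Figure D1:**
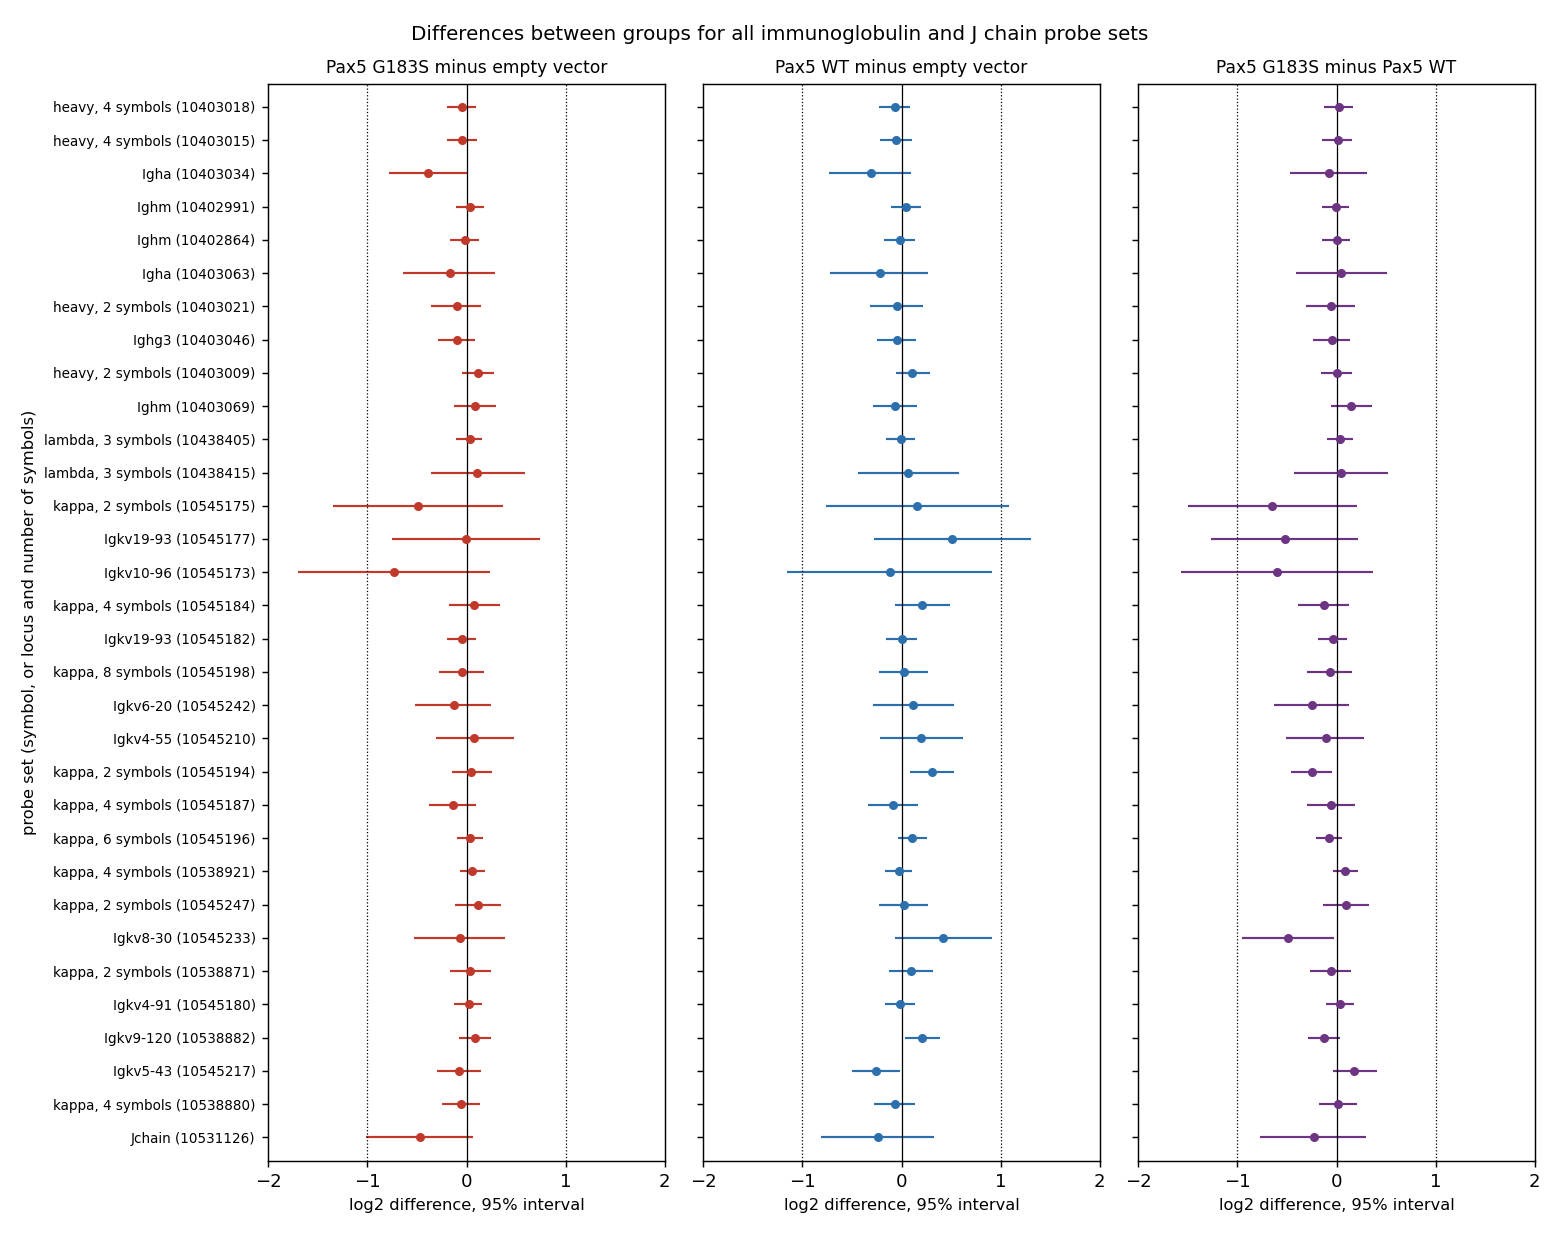
Difference of group means (log2, horizontal axis) for each of the 32 immunoglobulin and J chain probe sets, with its 95% interval from limma, in G183S against empty vector, WT against empty vector and G183S against WT. The widest intervals belong to the kappa probe sets 10545173, 10545175 and 10545177 and to the J chain, and no member passed the adjusted threshold.

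The lambda light chain, the kind J558 is known to make, read near the top of the array's scale in every group. Probe set 10438405, of the lambda locus with 3 symbols, read 14.05, 14.01, 13.97 and 13.89 in G183S, 13.90, 13.96 and 13.97 in WT, and 13.92, 13.95 and 13.99 in empty-vector arrays. The 3 groups overlapped completely, and the values lay just under the highest value of any probe set on an array, which was 14.12 to 14.28. Whether the array's scale compresses differences so near its top was not tested, so the narrow intervals hold for these readings only. The difference was 0.03 (95% interval -0.11 to 0.16, adjusted p = 0.947 by limma) in G183S against empty vector and -0.01 (-0.16 to 0.14) in WT against empty vector. Between G183S and WT it was 0.04 (-0.10 to 0.17).

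The other lambda probe set, 10438415, also with 3 symbols, read 11.94, 11.07, 11.08 and 10.98 in G183S, 11.09, 11.44 and 11.14 in WT, and 11.09, 11.10 and 11.27 in empty-vector arrays. G183S replicate 1 stood above all other arrays, and the other 3 G183S arrays lay just below every WT and empty-vector array. Its difference in G183S against empty vector was 0.11 (95% interval -0.36 to 0.59), and without that array it was -0.11. In G183S against WT the difference was 0.05 (-0.43 to 0.52), and -0.18 without that array.

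Of the 10 heavy chain probe sets, 2 lay high in every array. Both carry 4 symbols and share 9 of their 11 and 14 annotated transcripts, so they are not independent readings. Probe set 10403018 read 13.40, 13.45, 13.31 and 13.29 in G183S, 13.27, 13.39 and 13.35 in WT, and 13.37, 13.37 and 13.48 in empty-vector arrays. Probe set 10403015 read 13.13, 13.11, 13.05 and 13.00 in G183S, 13.01, 13.10 and 13.09 in WT, and 13.04, 13.08 and 13.24 in empty-vector arrays. In both, the groups overlapped, and the highest empty-vector array was replicate 3. For 10403018 the difference was -0.05 (95% interval -0.20 to 0.10) in G183S and -0.07 (-0.23 to 0.09) in WT against empty vector.

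**Figure D2:**
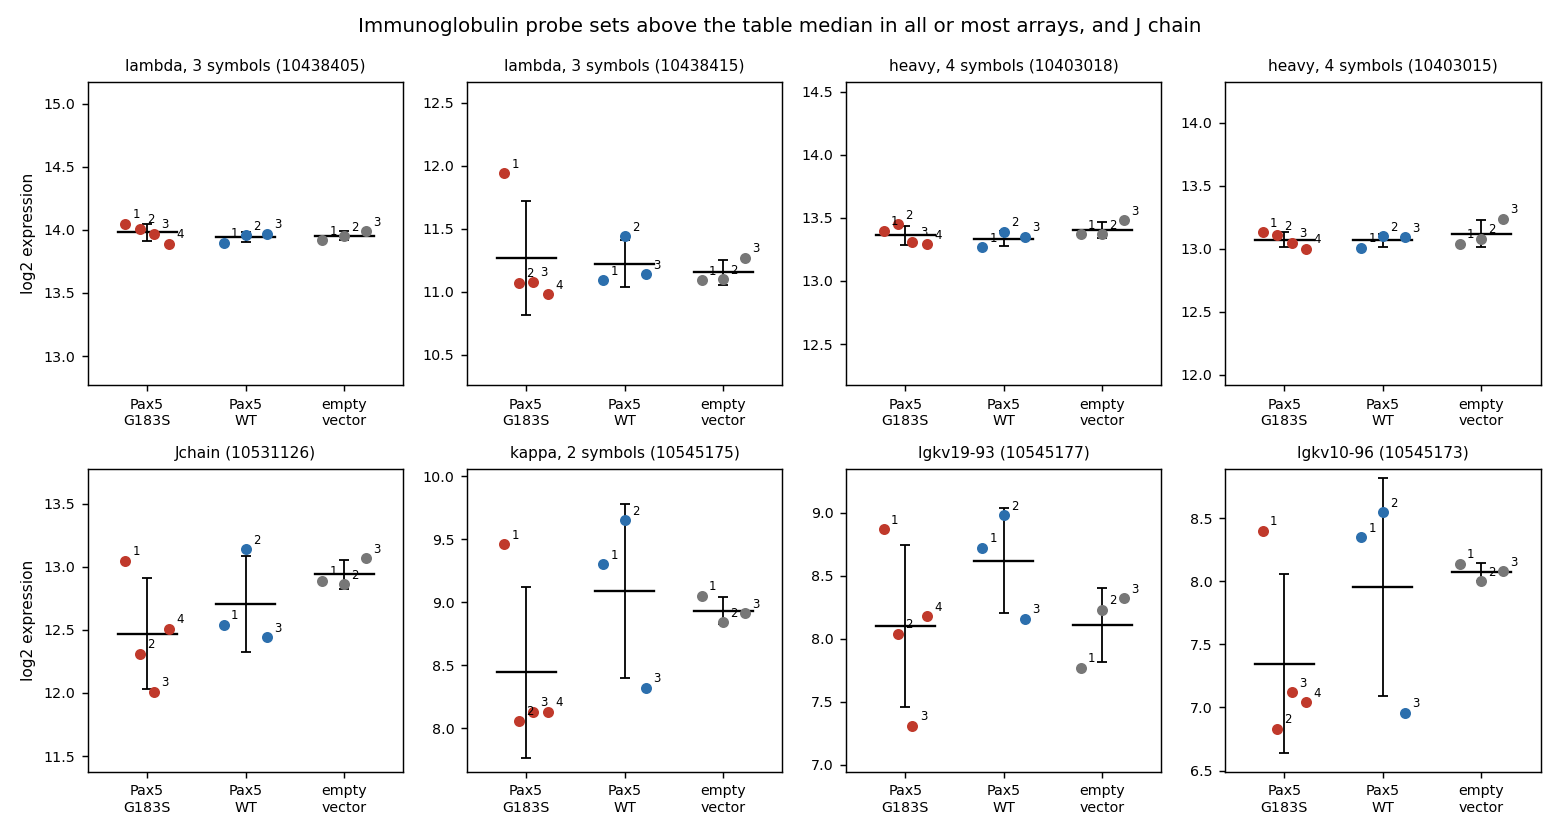
Level (log2 expression, vertical axis) of the brightest members in each array, with G183S, WT and empty-vector arrays side by side, numbered points for arrays, horizontal lines for group means and error bars for the SD, each panel with its own range. Lambda probe set 10438405, just under the highest values on the arrays, spans 13.89 to 14.05, lambda probe set 10438415 spans 10.98 to 11.94, and the J chain spreads from 12.01 to 13.14.

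Of the 6 probe sets that carry a single heavy chain constant region symbol, all but Igha probe set 10403034 had a mean below the table's median level. Ighm, the mu constant region of IgM, has 3 probe sets with that symbol alone, and all 3 lay below the table's median level in all 10 arrays. Ighm probe set 10402864 read 6.23, 6.07, 6.14 and 6.09 in G183S, 6.07, 6.20 and 6.14 in WT, and 6.12, 6.11 and 6.22 in empty-vector arrays. Ighm probe set 10402991 read 6.29, 6.22, 6.33 and 6.25 in G183S, 6.24, 6.32 and 6.29 in WT, and 6.34, 6.17 and 6.21 in empty-vector arrays. These groups overlapped, in cells that had been sorted for IgM. For 10402864 the difference was -0.02 (95% interval -0.17 to 0.13) in G183S and -0.02 (-0.18 to 0.14) in WT against empty vector. The third Ighm probe set, 10403069, lay at 3.81 to 4.14 in G183S, 3.75 to 3.92 in WT and 3.81 to 4.01 in empty-vector arrays. Where along the gene these probes lie was not used here, so a dim reading does not measure the whole transcript.

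Igha, the alpha constant region of IgA, has 2 probe sets with that symbol alone, and they list the same 7 transcripts. The symbol is also among the several given to the bright probe sets 10403018 and 10403015 and the dim 10403021 and 10403009. Readings of those probe sets cannot be assigned to 1 gene, so whether Igha as a whole reads bright or dim was not settled. Igha probe set 10403034 read 6.65, 6.61, 7.16 and 6.89 in G183S, 6.97, 6.80 and 6.94 in WT, and 7.61, 6.97 and 7.06 in empty-vector arrays. Empty-vector replicate 1 was the highest, all 3 WT arrays lay below the empty-vector arrays, though WT replicate 1 and empty-vector replicate 2 round to the same value, and G183S overlapped with both. The difference was -0.39 ± 0.17 (SE, 95% interval -0.78 to 0.00, adjusted p = 0.484 by limma) in G183S against empty vector and -0.31 (-0.73 to 0.10, adjusted p = 0.535) in WT against empty vector. Without empty-vector replicate 1 these became -0.19 and -0.11.

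The second Igha probe set, 10403063, read 5.58, 5.32, 5.34 and 5.41 in G183S, 5.34, 5.48 and 5.28 in WT, and 6.22, 5.25 and 5.30 in empty-vector arrays. It again had its highest value in empty-vector replicate 1, and 1 of the other empty-vector arrays was the lowest of all 10. Ighg3, the gamma-3 constant region, read 5.15, 4.94, 5.11 and 4.98 in G183S, 5.01, 5.07 and 5.20 in WT, and 5.20, 5.22 and 5.01 in empty-vector arrays, and its groups overlapped. Its difference was -0.10 in G183S and -0.05 in WT against empty vector.

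**Figure D3:**
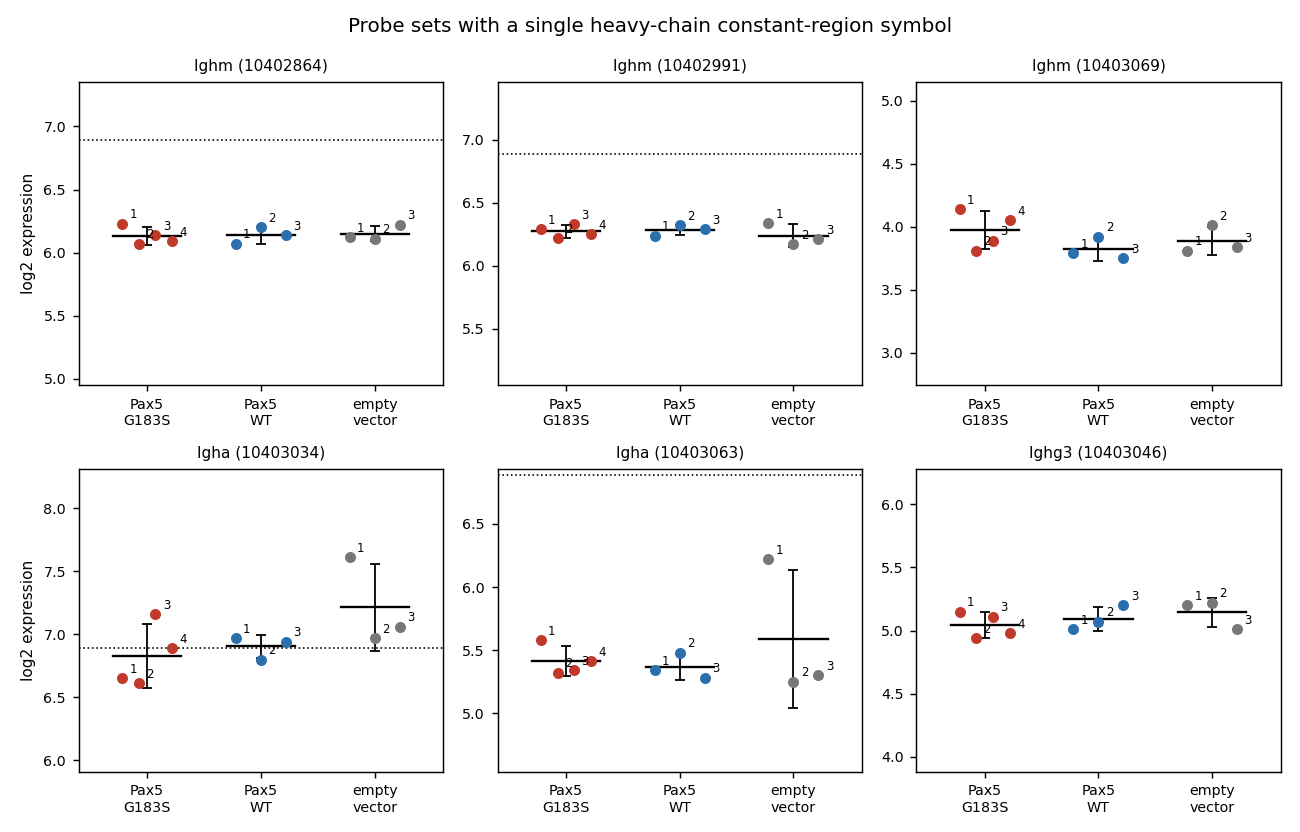
Level (log2 expression, vertical axis) of the 6 probe sets that carry a single heavy chain constant region symbol, in G183S, WT and empty-vector arrays, with numbered points for arrays, horizontal lines for group means, error bars for the SD and a dotted line at the table's median level. Ighm probe sets lie between 3.75 and 6.34 with overlapping groups, and both Igha probe sets are highest in empty-vector replicate 1.

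The J chain, which is made with polymeric IgA and IgM and is a known target of repression by Pax5, was bright in all groups. Jchain read 13.05, 12.31, 12.01 and 12.51 in G183S, 12.54, 13.14 and 12.44 in WT, and 12.89, 12.86 and 13.07 in empty-vector arrays. G183S replicates 2, 3 and 4 and WT replicates 1 and 3 lay below all empty-vector arrays, but G183S replicate 1 and WT replicate 2 did not, so the groups overlapped. The means were 12.47 ± 0.44 in G183S (SD, n = 4), 12.70 ± 0.38 in WT and 12.94 ± 0.11 in empty-vector arrays (SD, n = 3 each).

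The Jchain difference was -0.47 ± 0.24 (SE, 95% interval -1.01 to 0.07, adjusted p = 0.560 by limma) in G183S against empty vector. It was -0.24 ± 0.26 (-0.81 to 0.33, adjusted p = 0.754) in WT against empty vector and -0.23 ± 0.24 (-0.77 to 0.30, adjusted p = 0.813) in G183S against WT. Leaving out 1 array moved the first between -0.66 (without G183S replicate 1, adjusted p = 0.17) and -0.32 (without G183S replicate 3). The difference of WT against empty vector moved between -0.46 (without WT replicate 2) and -0.10 (without WT replicate 3). That of G183S against WT moved between -0.43 (without G183S replicate 1) and -0.02 (without WT replicate 2). The first interval reaches a difference of -1.01, so a lower J chain level of that size in G183S cells lies within the error of these arrays.

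The J chain was the one immunoglobulin member with a start region in the RefSeq table, and it is shown because Pax5 is known to act on this gene. The 300 bases run 5′ to 3′ along the minus strand of chr5:88527848-88528147 in GRCm38.p6, with the 50 bases from the annotated start onwards in capitals.
Jchain: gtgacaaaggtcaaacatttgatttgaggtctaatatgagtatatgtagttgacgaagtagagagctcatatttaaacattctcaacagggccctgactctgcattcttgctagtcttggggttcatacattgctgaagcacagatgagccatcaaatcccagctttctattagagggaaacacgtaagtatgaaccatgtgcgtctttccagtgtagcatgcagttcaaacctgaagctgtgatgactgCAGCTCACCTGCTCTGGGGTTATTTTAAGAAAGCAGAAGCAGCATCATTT
On both strands, the window held no match to the octamer ATGCAAAT of immunoglobulin promoters, which 1.74% of 32851 such windows hold, or to TATAAA, which 13.6% hold. It also held none to GAGGAA, a core bound by PU.1 (28.3% of windows), or to GCGTGAC, a stretch of the Pax5 consensus (2.09%). With no match to any of the 4 motifs, none overlapped another, and the lack of these letters in the window says nothing about the factors.

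The kappa locus held the members that varied most. Of its 19 probe sets, 15 had a mean below the table's median level. Igkv10-96, a kappa variable segment, has probe set 10545173, which read 8.40, 6.83, 7.12 and 7.04 in G183S, 8.35, 8.55 and 6.96 in WT, and 8.14, 8.00 and 8.08 in empty-vector arrays. The values lay in a high and a low range with no array between 7.12 and the lowest empty-vector array, and the low range held G183S replicates 2, 3 and 4 and WT replicate 3. Its spread within groups, a residual SD of 0.66, was at percentile 99.1 of the table.

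Igkv10-96 averaged 7.35 ± 0.71 in G183S, 7.95 ± 0.86 in WT and 8.07 ± 0.07 in empty-vector arrays (SD, n = 4, 3 and 3). The difference was -0.73 ± 0.43 (SE, 95% interval -1.70 to 0.24, adjusted p = 0.650 by limma) in G183S and -0.12 ± 0.46 (-1.16 to 0.91, adjusted p = 0.943) in WT against empty vector. Leaving out G183S replicate 1 gave -1.08 for G183S against empty vector (adjusted p = 0.211). For WT against empty vector, leaving out 1 array gave between -0.42 (without WT replicate 2) and 0.37 (without WT replicate 3, adjusted p = 0.745). In G183S against WT the difference was -0.60, and it moved between -1.10 (without WT replicate 3) and -0.30 (without WT replicate 2).

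Probe set 10545175, of the kappa locus with 1 variable and 1 joining symbol, lists all 4 transcripts of 10545173, so the pair are not independent. It read 9.46, 8.06, 8.13 and 8.13 in G183S, 9.30, 9.65 and 8.32 in WT, and 9.05, 8.84 and 8.91 in empty-vector arrays, with the same 4 arrays lowest. The difference was -0.49 (95% interval -1.35 to 0.37, adjusted p = 0.765) in G183S and 0.16 (-0.76 to 1.08, adjusted p = 0.913) in WT against empty vector, and -0.65 (-1.50 to 0.21) in G183S against WT. Leaving out 1 array moved the first between -0.83 (without G183S replicate 1) and -0.36 (without G183S replicate 2). It moved the second between -0.12 (without WT replicate 2) and 0.54 (without WT replicate 3), and the third between -1.03 (without WT replicate 3) and -0.37 (without WT replicate 2).

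Igkv19-93, another kappa variable segment, is separated from Igkv10-96 by 5 annotated segments in RefSeq's gene order. Its probe set 10545177 read 8.87, 8.04, 7.31 and 8.18 in G183S, 8.72, 8.98 and 8.16 in WT, and 7.77, 8.23 and 8.32 in empty-vector arrays. Here G183S replicate 1 and WT replicates 1 and 2 were the highest, and empty-vector replicates 3 and 2 came next. Empty-vector replicate 1 lay below all arrays but G183S replicate 3. The difference was 0.51 (95% interval -0.28 to 1.31, adjusted p = 0.603) in WT and -0.01 (-0.75 to 0.74, adjusted p = 0.998) in G183S against empty vector, and leaving out 1 array moved the G183S difference between -0.26 (without G183S replicate 1) and 0.26 (without G183S replicate 3). The WT difference moved between 0.33 (without WT replicate 2) and 0.74 (without WT replicate 3). In G183S against WT the difference was -0.52, and it moved between -0.78 (without G183S replicate 1) and -0.26 (without G183S replicate 3). A second Igkv19-93 probe set, 10545182, held 6.77 to 6.94 in G183S, 6.87 to 6.93 in WT and 6.85 to 6.94 in empty-vector arrays, so the 2 probe sets of this symbol disagreed in how far they varied.

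**Figure D4:**
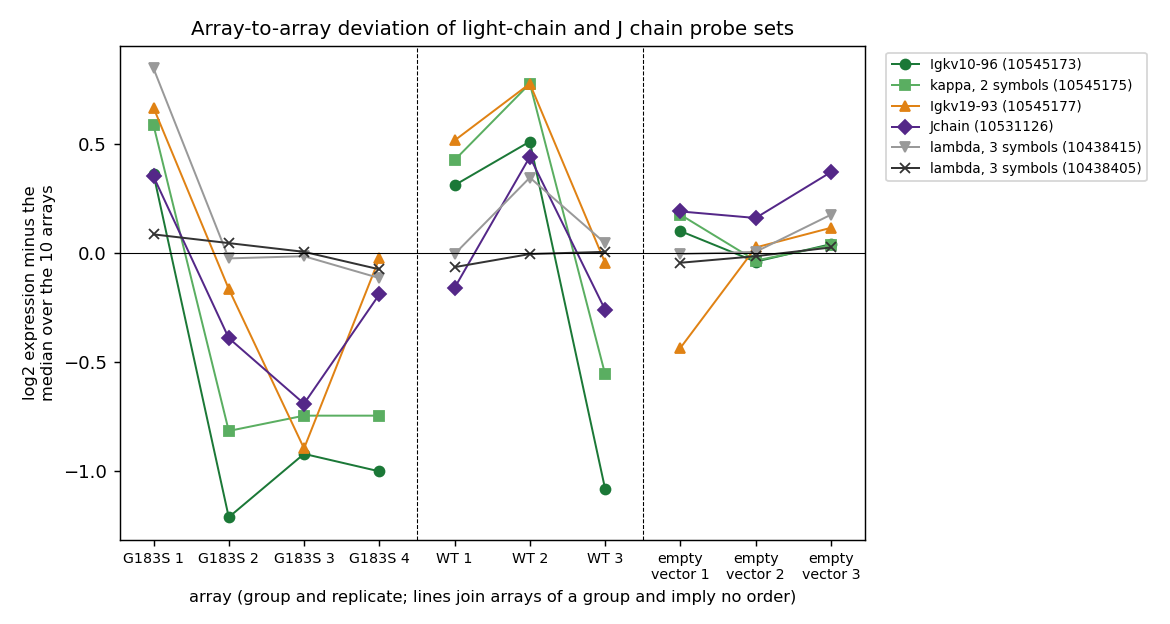
Log2 expression minus the median over the 10 arrays (vertical axis) of the most variable kappa members, the J chain and both lambda members, with G183S, WT and empty-vector arrays along the horizontal axis and lines joining the arrays of a group. G183S replicates 2, 3 and 4 and WT replicate 3 lie low in the J chain and in kappa probe sets 10545173 and 10545175, while G183S replicate 1 lies with the high arrays.

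The 4 low arrays of Igkv10-96 belong to both Pax5 groups. They were the 4 lowest in 4 of the 32 members: the J chain, 10545173, 10545175 and Igkv6-20. Probe set 10545173 is the one that set this pattern, and 10545175 lists all its transcripts. Only the J chain and Igkv6-20 are therefore further matches. Over all probe sets, 1149 of 34760, or 3.31%, had those 4 arrays lowest. This array set was picked after the values were seen, and no test was made of it. Among the plasma cell markers, 2 of 7 had the same 4 arrays lowest, namely Sdc1 and Xbp1.

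Sdc1, or syndecan-1, the surface protein by which plasma cells are known, read 11.03, 9.73, 9.84 and 10.45 in G183S, 10.97, 10.87 and 10.45 in WT, and 11.22, 11.51 and 11.48 in empty-vector arrays. Every Pax5 array of Sdc1 lay below every empty-vector array, so both Pax5 groups were separate from empty vector. The Sdc1 difference was -1.14 ± 0.28 (SE, adjusted p = 0.169 by limma) in G183S against empty vector. In WT against empty vector it was -0.64 ± 0.30 (adjusted p = 0.424 by limma). Xbp1, the factor that expands the secretory pathway, read 13.03, 12.42, 12.69 and 12.59 in G183S, 12.93, 12.88 and 12.53 in WT, and 12.94, 13.04 and 13.06 in empty-vector arrays. Pou2af1, the coactivator of octamer-bound Oct factors at immunoglobulin promoters, also had those 4 arrays lowest, at 13.27, 12.64, 12.63 and 12.76 in G183S, 13.29, 13.18 and 12.82 in WT, and 12.92, 12.88 and 13.01 in empty-vector arrays. Of 34 probe sets for genes that act in making immunoglobulin, 3 had this pattern: Pou2af1, Xbp1 and Edem1. None of Sdc1, Xbp1, Pou2af1 and Edem1 passed the adjusted threshold in any comparison, and their part in the levels of the kappa and J chain members was not tested.

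In WT against empty vector, 5 of 32 members (15.6%) had groups that did not overlap, where 20.3% of the table did not. WT was higher in 10545194, 10545196 and Igkv9-120 by this count, and lower in Igha probe set 10403034 and Igkv5-43. In G183S against empty vector, 0 of 32 did, where the table had 10.5%. In G183S against WT, 2 of 32 (6.25%) did not overlap, against 6.17% of the table, and these were 10545194 and Igkv9-120, both lower in G183S.

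The lowest unadjusted p in WT against empty vector was that of kappa probe set 10545194, which carries 2 symbols. It read 5.61, 5.27, 5.44 and 5.37 in G183S, 5.62, 5.64 and 5.77 in WT, and 5.45, 5.41 and 5.24 in empty-vector arrays. All 3 WT arrays lay above all arrays of both other groups. The difference was 0.31 (95% interval 0.09 to 0.53, adjusted p = 0.215 by limma) in WT against empty vector and -0.25 (-0.46 to -0.05, adjusted p = 0.638) in G183S against WT.

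Igkv9-120 read 4.39, 4.46, 4.52 and 4.44 in G183S, 4.64, 4.57 and 4.53 in WT, and 4.32, 4.27 and 4.51 in empty-vector arrays, and its WT arrays were likewise the top 3. Igkv5-43 read 4.45, 4.30, 4.07 and 4.32 in G183S, at most 4.25 in WT, and 4.39, 4.26 and 4.42 in empty-vector arrays, so its WT arrays lay just below the empty-vector ones. In WT against empty vector the differences were 0.21 (95% interval 0.04 to 0.39, adjusted p = 0.288) for Igkv9-120 and -0.26 (-0.50 to -0.02, adjusted p = 0.353) for Igkv5-43. Probe sets 10538921 and 10538880, which list Igkv9-120 among several symbols, differed by -0.03 and -0.07 in that comparison, with overlapping groups.

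Igkv8-30 read 4.64, 4.46, 4.23 and 4.70 in G183S, 5.24, 5.24 and 4.51 in WT, and 4.56, 4.32 and 4.86 in empty-vector arrays, where 2 WT arrays were high and WT replicate 3 was not. Its difference in G183S against WT was -0.49 (95% interval -0.95 to -0.03, adjusted p = 0.638). Igkv6-20 read 6.30, 5.85, 5.91 and 5.90 in G183S, 6.28, 6.60 and 5.84 in WT, and 6.03, 6.16 and 6.19 in empty-vector arrays, and its groups overlapped in all 3 comparisons. Variable segments of 1 family are alike in sequence, so signal from one segment may be read on the probe set of another, and this could not be told apart here.

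Of the members whose readings were not yet given, kappa probe set 10545184, with 4 symbols, lay above the table's median level in every array. It read 7.17, 7.16, 7.19 and 7.29 in G183S, 7.11, 7.55 and 7.33 in WT, and 7.04, 6.98 and 7.34 in empty-vector arrays, with overlapping groups and a difference of 0.08 (95% interval -0.18 to 0.34) in G183S and 0.21 (-0.07 to 0.49) in WT against empty vector. Igkv4-55 read 5.79, 5.90, 6.29 and 5.68 in G183S, 6.32, 6.05 and 5.73 in WT, and 5.66, 5.80 and 6.04 in empty-vector arrays, and its high arrays were spread over the groups. Igkv4-91, at 4.55 to 4.60 in G183S, 4.43 to 4.62 in WT and 4.53 to 4.62 in empty-vector arrays, hardly varied. Kappa probe set 10545187, with 4 symbols, had its highest value, 5.80, in empty-vector replicate 1, as both single-symbol Igha probe sets did. Its other arrays lay between 5.26 and 5.47. The rest were 2 heavy chain probe sets with 2 symbols each, 10403021 and 10403009, and the kappa probe sets 10545198, 10545196, 10538921, 10545247, 10538871 and 10538880, all with several symbols. Their group differences ran from -0.10 to 0.12 in every comparison.

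The genes that transcribe, splice, fold or carry immunoglobulin were listed beside the members, and 34 probe sets of 33 of the 37 listed symbols were found. Only Irf8 passed the adjusted threshold, with 1 higher and 0 lower in each Pax5 comparison and 0 in G183S against WT. Irf8, a factor that binds light chain enhancers together with PU.1, read 10.31, 9.99, 9.05 and 9.91 in G183S, 10.53, 10.08 and 10.17 in WT, and 7.92, 8.07 and 7.91 in empty-vector arrays. Every Pax5 array lay above every empty-vector array. The difference was 1.85 ± 0.25 (SE, adjusted p = 0.0344 by limma) in G183S and 2.29 ± 0.27 (adjusted p = 0.0173) in WT against empty vector, and -0.45 (95% interval -1.01 to 0.12) in G183S against WT. Without empty-vector replicate 2 or 3, 0 companion genes were called.

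Ero1b, an oxidase that helps to form disulfide bonds in secreted proteins, read 9.79, 9.48, 9.52 and 9.52 in G183S, 9.65, 9.73 and 10.26 in WT, and 9.12, 9.10 and 8.95 in empty-vector arrays. All Pax5 arrays lay above the empty-vector arrays, but the difference of 0.82 (95% interval 0.48 to 1.17, adjusted p = 0.0578) in WT and of 0.52 (0.20 to 0.84, adjusted p = 0.204) in G183S against empty vector did not pass. In G183S against WT the smallest unadjusted p-values among these genes were those of Edem1, which takes misfolded proteins to degradation, and Irf4, which plasma cells need. Edem1 differed by -0.30 (95% interval -0.54 to -0.07, adjusted p = 0.638) and Irf4 by -0.58 (-1.15 to -0.02, adjusted p = 0.639).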

How the data were processed

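Total RNA from 10 J558 cultures was hybridised to Affymetrix gene arrays that cover whole transcripts, and the labels call the replicates biological and independent. The authors deposited 1 log2 value for each probe set and array. The submitters' processing notes name RMA and Partek with neither version nor role. The genome build is not given in the sources used here. Normalization by RMA equalises the distribution of values across arrays, so a change common to all genes would be hidden.

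All 34760 probe sets entered 1 limma fit (limma 3.58.1, R 4.3.3) with a coefficient per group over the 10 arrays. Tests were two-sided, p-values were adjusted by Benjamini-Hochberg over all probe sets with a threshold of 0.05, and 95% intervals came from limma's standard errors. The number of arrays limits the precision. The fit was tested on simulated data with the means and spreads of these arrays and independent errors. Of added differences of 0.5 log2 units, 37.3% to 41.6% were called, depending on the comparison. For 1 log2 unit the share was 74% to 81.6%. Among the calls, 5.89% to 6.13% were false. The shares called pool probe sets and were not measured for the most variable members alone. By spread within groups, 10545173, 10545175, 10545177 and the J chain stood at percentiles 99.1, 98.6, 97.4 and 91.2 of the table. For these members the pooled shares do not show how often such a difference would be called.

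Symbols came from the platform annotation, where 21640 probe sets have 1 symbol, 1321 have several and 11799 are not listed. The members and gene lists were chosen with earlier results of these data known. Named were single-symbol constant regions and the J chain, the 5 members with the smallest p per comparison, the 5 with the largest SD and the 10 with the highest mean, each companion gene called and the 2 with the smallest p per comparison. Pou2af1, Sdc1, Xbp1 and Igkv6-20 were singled out for their array pattern after their values were seen. Tnfrsf17 and Slamf7 were named among the plasma cell markers, also after their values were seen. Start regions came from RefSeq. Alternatives were median centring, leaving out dim or unannotated probe sets, 1 probe set per gene, 2-group fits, array weights, a trended robust prior, no moderation, a replicate block and leaving out each array.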

Additional observations from a re-analysis of the deposited data

Results flagged for a closer look

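In 3 of 32 members, or 9.38%, the G183S array of replicate 1 stood far from the other 3 G183S arrays relative to their whole range, where 7.16% of the table had an array that far out in this group. Chance gives such an array in about 1 of 20 groups. Lambda probe set 10438415 was at 11.94 in that array and at 10.98 to 11.08 in the others. Kappa probe set 10545175 was at 9.46, against 8.06 to 8.13 in the others. Igkv6-20 was at 6.30, against 5.85 to 5.91 in the others. In all 3 the far array was the same one, G183S replicate 1. Over all 10 arrays it was the highest in 10438415, and WT replicate 2 was the highest in 10545175 and Igkv6-20.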

How the results depend on the processing

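No member was called under any of the alternatives run: the count stayed at 0 in each comparison, including each array left out (0 to 0). All 32 members entered except that leaving out dim probe sets kept 10, 1 probe set per gene kept 12 and members with 1 symbol were 16. Of the refitted differences, 84 of 1698 changed sign while uncalled. Leaving out single arrays moved the members' median difference between -0.063 and 0.002 in G183S against empty vector, -0.039 and 0.024 in WT against empty vector, and -0.071 and -0.019 in G183S against WT. Companion genes called, 1 as reported, came to 2 without dim probe sets, 2 with annotated probe sets only, 2 with 1 probe set per gene, 4 with array weights, 0 without moderation and 0 with the replicate block. Leaving out single arrays gave 0 to 3. Whole-table counts moved more: with array weights 1065, 1793 and 0 probe sets were called, and without G183S replicate 1, 104, 581 and 453. Replicate numbers were not used to pair the arrays in the main fit. Deviations of 9 same-numbered pairs correlated at -0.11 to 0.46, with 2 over 0.1. Of 9 arrays, 5 correlated best with their own number. The 2 pairs joined WT and G183S arrays, at 0.46 for replicate 1 and 0.39 for replicate 3. Crossed numbers gave -0.50 (WT replicate 3 with G183S replicate 1) and -0.43 (WT replicate 1 with G183S replicate 3). Whether these arrays shared handling was not tested. With the replicate block, 0 members were called in each comparison, and 4, 7 and 0 probe sets in the table. At an unadjusted p under 0.05, members numbered 3, 6 and 9 with array weights (9.38%, 18.8% and 28.1%), against 18.2%, 22.4% and 24.4% of the table in that fit.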
